A study of Mus musculus with 18 samples.

Results

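The data were RNA-seq levels of 8 acute-phase genes in whole mouse testis: Serpina3n, Lrg1, Saa3, C3, Lcn2, Itih3, Hp and Cp. They were picked from the 20985 genes of the deposited table for their acute-phase function and for large rises in testis after streptozotocin. Their differences between STZ and control libraries chose them, so every comparison that uses STZ or control libraries is given for these 8 genes as a description, with no test. All 8 have a row in the table.

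The animals were ICR mice, an outbred strain, aged 10 weeks, and 6 groups of 3 libraries each were measured. STZ + AOS mice received streptozotocin (STZ), a compound toxic to the insulin-producing cells of the pancreas, and alginate oligosaccharide (AOS), a short-chain sugar made from the alginate of brown seaweed, at a dose of 10 mg/kg. STZ + AOS-FMT and STZ + control-FMT mice received STZ and a transplant of gut microbes (FMT); the labels are taken to mean donors given 10 mg/kg AOS for STZ + AOS-FMT and control donors for STZ + control-FMT. STZ mice received streptozotocin with neither AOS nor a transplant named, AOS mice received AOS at 10 mg/kg, and control mice have no treatment named. The STZ dose and schedule, blood glucose and the transplant schedule are not stated there. Whether replicate libraries stand for different animals is not stated either, so each p-value reflects the spread among libraries, which may be technical.

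The acute-phase response is the change in secreted plasma proteins that follows infection or injury, best known from the liver. Interleukin-6, acting through STAT3 and C/EBP factors, and interleukin-1 and TNF, acting through NF-kB, are its main inducers. Many of its genes are also expressed outside the liver, and in the testis Sertoli cells make several of the same secreted proteins, among them transferrin and ceruloplasmin.

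The sequences before the transcription start are shown for the 5 members that carry a match to one of the inducer motifs in the first start site listed, to show which letters those matches are. Each is the 250 bases upstream of a RefSeq start (GRCm38.p6), written 5′ to 3′ on the gene's strand, with the motif in capitals.
Serpina3n, chr12:104406458-104406707, plus strand: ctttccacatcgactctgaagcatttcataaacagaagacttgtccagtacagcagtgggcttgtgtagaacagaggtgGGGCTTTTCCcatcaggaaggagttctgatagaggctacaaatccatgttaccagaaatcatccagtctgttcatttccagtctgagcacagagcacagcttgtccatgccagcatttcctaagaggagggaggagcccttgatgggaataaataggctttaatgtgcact
Lrg1, chr17:56121947-56122196, minus strand: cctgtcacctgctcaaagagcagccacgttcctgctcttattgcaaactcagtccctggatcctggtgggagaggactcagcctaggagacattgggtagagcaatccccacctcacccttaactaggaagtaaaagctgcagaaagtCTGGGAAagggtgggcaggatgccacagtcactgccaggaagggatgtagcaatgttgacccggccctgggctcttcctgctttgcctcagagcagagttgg
Saa3, chr7:46715677-46715926, minus strand: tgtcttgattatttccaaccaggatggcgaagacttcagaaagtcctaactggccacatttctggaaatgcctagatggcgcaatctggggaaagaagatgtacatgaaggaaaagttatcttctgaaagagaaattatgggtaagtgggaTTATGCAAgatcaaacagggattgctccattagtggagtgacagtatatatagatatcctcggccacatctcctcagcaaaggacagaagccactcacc
C3, chr17:57228137-57228386, minus strand: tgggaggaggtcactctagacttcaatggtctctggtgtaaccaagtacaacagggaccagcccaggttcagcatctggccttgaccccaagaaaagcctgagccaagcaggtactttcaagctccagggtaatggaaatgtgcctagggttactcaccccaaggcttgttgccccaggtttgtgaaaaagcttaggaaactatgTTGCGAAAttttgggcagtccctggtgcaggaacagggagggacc
Lcn2, chr2:32387740-32387989, minus strand: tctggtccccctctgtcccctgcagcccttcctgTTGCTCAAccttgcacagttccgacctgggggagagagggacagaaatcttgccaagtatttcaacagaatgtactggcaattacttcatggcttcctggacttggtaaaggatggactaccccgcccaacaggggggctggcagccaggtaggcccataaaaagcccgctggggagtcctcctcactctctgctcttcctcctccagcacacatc

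The capitals mark GGGCTTTTCC in Serpina3n, a match to the NF-kB motif whose first base is at position -171 from the start. In Lrg1 they mark CTGGGAA, the type 2 interleukin-6 response element, at -102. In Saa3 (TTATGCAA, at -99), C3 (TTGCGAAA, at -45) and Lcn2 (TTGCTCAA, at -216) they mark the C/EBP motif TTGCNNAA, in Saa3 on the opposite strand. Both strands were searched from 250 bases before to 50 after the start, also for the STAT motif TTCNNNGAA. Among 32851 promoters in the same table, 4.79% held the NF-kB motif, 11.1% the interleukin-6 element, 10.8% the C/EBP motif and 8.3% the STAT motif. The share with any of the 4 was not counted, so nothing is read from the number of members with a match. The Itih3 promoter held none of these 4 motifs, and Cp held a C/EBP match, at -70, at one of its 2 listed starts. The promoters searched were those of the members other than Hp. None of them held TTCNNNGAA, which says only that these letters are not in the window. The element CTGGGAA can overlap TTCNNNGAA on the other strand, which it did in the paralogs Serpina3g and Serpina3i.

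Levels are FPKM, fragments scaled by transcript length and library depth, a unit read from the values because the header names none. Differences are log2 differences of FPKM + 1 from one limma model over the 6 groups, which understates changes of low genes. The marker lists for testis cells were present as the tissue label says: the spermatid gene Prm2 lay between 4562 and 14893 FPKM over the 18 libraries and the Sertoli gene Sox9 between 2.51 and 10.91 FPKM. In STZ libraries the summed FPKM of 15 elongating spermatid markers was 28360 to 51700, against 56570 to 63190 in control libraries, and that of 26 Sertoli markers was 2392 to 3186, against 1011 to 1122. All 25 Sertoli markers that passed the filter on low values were higher in limma at an adjusted p under 0.05, while 43.2% of all genes tested were. In whole tissue, fewer cells of a type and less RNA per cell cannot be told apart.

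In the STZ libraries 6 of the 8 members, Serpina3n, Lrg1, Saa3, C3, Itih3 and Cp, had every library above every control library. Of all 14164 genes tested, 42.1% did so, and since STZ against control chose the members nothing is read from the count. Lcn2 and Hp did not do so: in STZ replicate 1 neither was above the control libraries, so the description as raised in STZ testis holds for these 2 genes only in replicates 2 and 3. STZ replicate 1 had the lowest of the 3 STZ values for all 8 members.

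Serpina3n encodes a secreted serine protease inhibitor whose human relative is alpha-1-antichymotrypsin (chromosome 12, 104406729 to 104414329, plus strand, GRCm38). Its levels were 31.47, 82.67 and 50.12 FPKM in the STZ libraries, against 2.98, 3.65 and 4 FPKM in the control libraries. The lowest STZ library was above the highest control library by a wide margin, and the ratio of the means was 15.5 (log2 difference 3.52, SE 0.36). The gene sits in a cluster of close paralogs, and 6.9% of its 50-base windows also occur in transcripts of other genes, Serpina3g among them.

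Complement C3 is the central component on which the activation routes of complement converge (chromosome 17, 57203970 to 57228136, minus strand). It was at 24.33, 82.63 and 70.56 FPKM in STZ libraries, against 6.04, 7.46 and 5.11 FPKM in control libraries (log2 difference 2.90, SE 0.38). Replicates 2 and 3 lay close to each other and replicate 1 at less than the level of either, yet still above the control libraries. Lrg1, a secreted leucine-rich glycoprotein known to modulate TGF-beta signalling in blood vessels (chromosome 17, 56119678 to 56122001, minus strand), was at 13.29, 64.11 and 42.18 FPKM, against 3.59, 3.11 and 3.23 FPKM (2.99, SE 0.39). Its STZ libraries had the same rank order as those of Serpina3n.

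Saa3 encodes a serum amyloid A protein made mainly outside the liver in mice, by macrophages and fat among other sites (chromosome 7, 46711998 to 46715700, minus strand). It was at 3.54, 7.31 and 11.15 FPKM in STZ libraries, against 0.36, 0 and 0.36 FPKM in control libraries (log2 difference 2.65, SE 0.33). Its low values were whole multiples of a step of 0.177 FPKM, to within 0.11 of a step, and the STZ values came to 20, 41 and 63 steps against 2, 0 and 2 steps in control. If a step is 1 read, the level outside the STZ libraries rests on at most 10 reads a library. Of its 50-base windows, 3.91% occur in transcripts of unrelated genes.

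Itih3, a heavy chain of the inter-alpha-trypsin inhibitor family that binds hyaluronan in the extracellular matrix (chromosome 14, 30908572 to 30923760, minus strand), was at 4.93, 13.87 and 6.35 FPKM in STZ libraries. In control libraries it was at 0.51, 0.35 and 0.29 FPKM (log2 difference 2.65, SE 0.22). Itih3 and Saa3 reached 1 FPKM in 3 libraries, the filter on low values, only through the STZ libraries, so the filter favoured a rise of these 2 genes. The other 6 members pass the filter without the STZ libraries.

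The other 3 members handle iron, haemoglobin and copper. Lcn2, lipocalin 2, binds bacterial siderophores and so withholds iron (chromosome 2, 32384633 to 32388252, minus strand). It was the most abundant member on the FPKM scale in every library, at 184.37, 1902.87 and 1871.27 FPKM in STZ libraries, against 430.95, 476.12 and 386.51 FPKM in control libraries. The second and the third stood far above all other libraries and the first lay below every control library (log2 difference 1.02, SE 0.59). Hp, haptoglobin, binds free haemoglobin (chromosome 8, 109575128 to 109579172, minus strand). It was at 0.23, 1.52 and 5.10 FPKM in STZ libraries, against 0.64, 0.21 and 0.32 FPKM in control libraries (0.95, SE 0.38), so that STZ replicate 1 lay within the control range. Cp, ceruloplasmin, is a copper-carrying ferroxidase (chromosome 3, 19957054 to 20009145, plus strand), at 4.80, 12.16 and 12.98 FPKM, against 3.70, 4.08 and 4.16 FPKM (1.04, SE 0.24). Its first STZ library was just above the control libraries. Cp overlaps Hps3 on the opposite strand, and the sources used here do not give whether reads were counted by strand. Hps3 itself was at 3.39, 5.45 and 4.97 FPKM in STZ libraries, against 2.08, 1.80 and 2.50 FPKM in control libraries.

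**Figure D1:**
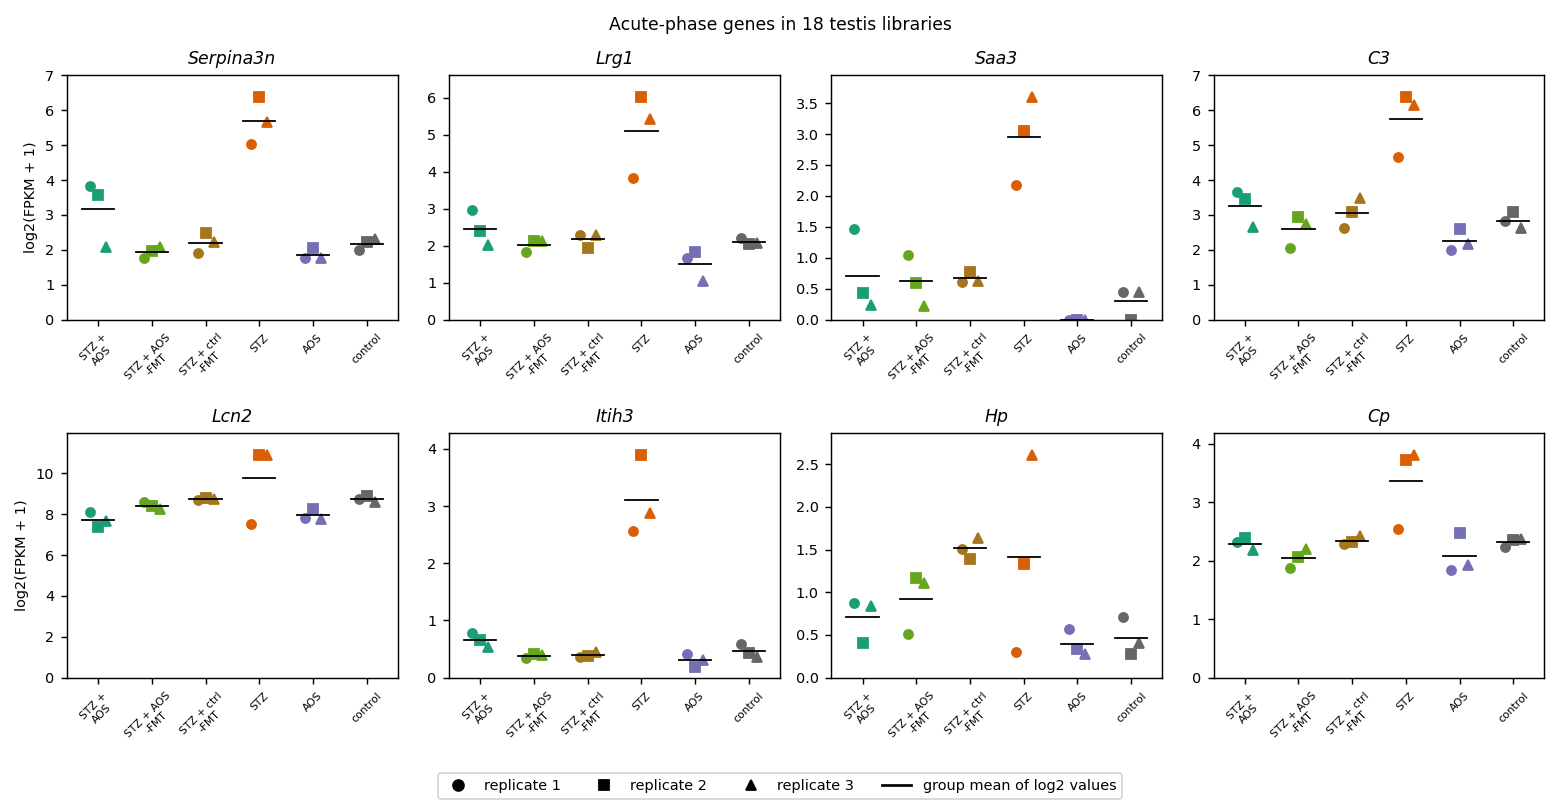
Levels of the 8 members in each of the 18 libraries as log2(FPKM + 1), 1 panel a gene, with groups along the horizontal axis, symbols for replicates and a line at the mean of the 3 log2 values. In the STZ column replicate 1 (circle) is the lowest in every panel, and for Lcn2 (184.37 FPKM) it lies below the control libraries.

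Because Sertoli markers were higher in the STZ libraries, each member was also expressed relative to them, by subtracting the mean log2(FPKM + 1) of the 25 measured Sertoli markers in the same library. That mean was 0.85, 1.27 and 1.34 above the control mean in the 3 STZ libraries. On this scale Serpina3n was 2.36, Lrg1 1.84, C3 1.75, Saa3 1.5 and Itih3 1.49 higher in STZ than in control, on the log2 scale. For these 5 genes all 3 STZ libraries stayed above the control mean. The differences of Cp (-0.12), Lcn2 (-0.14) and Hp (-0.20) changed sign on this scale. For low genes such as Hp, Saa3 and Itih3 the + 1 shrinks the difference, while the Sertoli shift is subtracted in full. As plain ratios to the control mean, Hp was at 0.59, 3.9 and 13.1 in the 3 STZ libraries. Whether its sign changes without the + 1 was not tested. The measure does not tell where a member is expressed, since it follows the Sertoli markers alone.

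**Figure D2:**
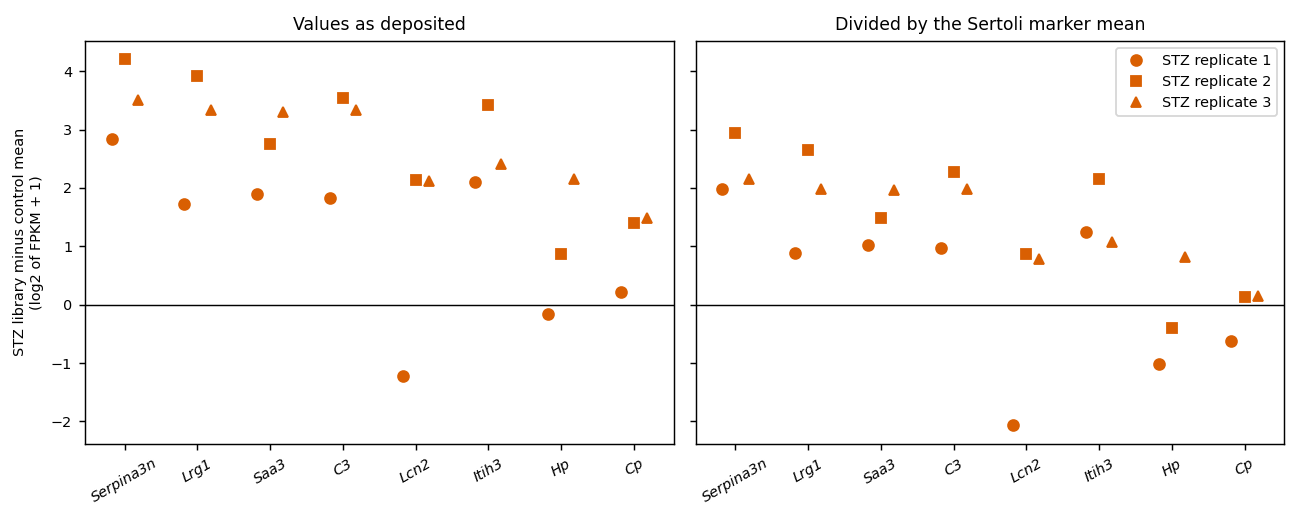
Difference of each STZ library from the control mean, in log2 of FPKM + 1, for the 8 members as deposited (left) and after subtracting the Sertoli marker mean of the same library (right). For Serpina3n, Lrg1, Saa3, C3 and Itih3 all points are above 0 in both panels, and the Lcn2 point of replicate 1 is at -1.22 in the left panel and -2.07 in the right panel.

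Markers of other cell types were counted in STZ against control in the same way, where 43.2% of all genes tested were higher and 12% lower. Of 18 macrophage markers, 16 passed the filter, of which 13 were higher and 1 lower in STZ, and their summed level was 514.9 to 615 FPKM, against 398.3 to 417.8 FPKM in control libraries. Cd14, Cd163 and Itgam, on this list, passed the filter only through the STZ libraries, which favoured a rise of these genes. The other markers were not all checked for this. Cd68 was at 7.44, 12.35 and 14.76 FPKM in STZ libraries, against 3.49, 3.25 and 3.20 FPKM in control libraries. Of 17 neutrophil markers in the table, 15 were below 1 FPKM in every STZ library and 3 were at 0 there. The summed neutrophil level was 3.05 to 8.59 FPKM in STZ libraries, against 1.26 to 8.81 FPKM in control libraries, and the 1 neutrophil marker tested, Itgam, which is also on the macrophage list, was higher. S100a8 was at 0, 0 and 0.30 FPKM in STZ, against 0 in all 3 control libraries, and S100a9 at 0.20, 0.56 and 0.75 FPKM, against 0 in all 3. Of 18 hepatocyte markers, 5 passed the filter, 1 higher (Ahsg, which passed the filter only through STZ) and 1 lower (Apoh). The summed level was 39.46 to 60.34 FPKM in STZ, against 38.77 to 45.20 FPKM in control. Most of the control sum was Apoh, at 33.25, 35.76 and 31.57 FPKM, against 36.76, 23.09 and 22.37 FPKM in STZ. The sum therefore does not show how the other hepatocyte markers moved. Albumin (Alb) did not exceed 0.13 FPKM in any library. Fibroblast markers summed to 482.8 to 697.4 FPKM in STZ, against 201.2 to 204.5 FPKM in control (5 of 11 higher, 0 lower). Endothelial markers summed to 34.36 to 48.35 FPKM in STZ, against 19.90 to 23.19 FPKM in control (10 of 12 tested higher, 0 lower), and myoid markers to 325.2 to 392 FPKM, against 313.7 to 336.7 FPKM (7 of 9 tested higher, 1 lower). The part of these cell types in the member levels was not tested.

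In the groups that received STZ together with AOS or a transplant, 6 members, the same in each group, had every library below every STZ library. Among all genes tested the shares lower without overlap were 41.1% for STZ + AOS, 42.7% for STZ + AOS-FMT and 38.2% for STZ + control-FMT. These 3 comparisons share the STZ libraries, and for the members the STZ libraries chose the genes, so nothing is read from the counts. The exceptions were Lcn2 and Hp, whose first STZ library was low.

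The levels of STZ + AOS testes were uneven. Serpina3n was at 13.11, 10.86 and 3.27 FPKM there, with 2 libraries above every library of the 4 groups other than STZ and the third among them. C3 was at 11.50, 9.96 and 5.34 FPKM and Lrg1 at 6.74, 4.24 and 3.08 FPKM, with the same order of libraries. Saa3 was at 1.76, 0.35 and 0.18 FPKM and Itih3 at 0.72, 0.58 and 0.45 FPKM, again highest in replicate 1. The macrophage markers of these 3 libraries summed to 428.6, 368.9 and 385.8 FPKM and the Sertoli markers to 1234, 1187 and 1168 FPKM. The macrophage sums of replicates 2 and 3 lay below those of all other groups, and the Sertoli sums compare with 1011 to 1184 FPKM in the other groups outside STZ.

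Both transplant groups and the AOS group lay far below STZ for these 5 genes. Serpina3n was at 2.37, 2.89 and 3.25 FPKM in STZ + AOS-FMT libraries and at 2.74, 4.60 and 3.68 FPKM in STZ + control-FMT libraries. The AOS libraries had 2.43, 3.14 and 2.37 FPKM. By mean level the order for Serpina3n was STZ (54.8 ± 25.9 FPKM), STZ + AOS (9.08 ± 5.16), STZ + control-FMT (3.67 ± 0.93), control (3.54 ± 0.518), STZ + AOS-FMT (2.84 ± 0.442) and AOS (2.65 ± 0.428; SD, n = 3 each). Only the step between STZ and STZ + AOS was free of overlap between neighbours.

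The same order of 6 means held for Lrg1, and C3 had it too, each with overlap between all neighbours below STZ, or for STZ + AOS-FMT and AOS in Lrg1 a tie at 2.56 FPKM. Lrg1 averaged 39.9 ± 25.5 FPKM in STZ and 4.69 ± 1.87 FPKM in STZ + AOS, and 1.93 ± 0.785 FPKM in AOS, the lowest (SD, n = 3 each). C3 averaged 59.2 ± 30.8 FPKM in STZ and 8.93 ± 3.21 FPKM in STZ + AOS, against 3.84 ± 1.06 FPKM in AOS. Saa3 was listed at 0 in all 3 AOS libraries, at 1.06, 0.51 and 0.17 FPKM in STZ + AOS-FMT and at 0.53, 0.71 and 0.54 FPKM in STZ + control-FMT. Itih3 lay between 0.14 and 0.51 FPKM in the 12 libraries of the transplant, AOS and control groups. Cp lay between 2.56 and 4.56 FPKM in the 15 libraries outside STZ, with overlapping neighbours throughout.

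Set against control libraries, AOS had 3 members lower in every library, Lrg1, C3 and Lcn2 (14.7% of all genes tested were lower without overlap). The log2 differences were -0.59, -0.58 and -0.80, with SEs of 0.39, 0.38 and 0.59. STZ + AOS had Lcn2 lower without overlap (8.86% of genes), STZ + AOS-FMT had Lcn2 and Cp lower (10%), and STZ + control-FMT had Saa3 and Hp higher (10.6%) than control. The control libraries helped to choose the members, so no test is given.

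Tests were possible among the 4 groups whose libraries did not choose the members: STZ + AOS, STZ + AOS-FMT, STZ + control-FMT and AOS. In limma none of the 8 members passed an adjusted p of 0.05 in any of the 6 comparisons or in the F test over the 4 groups. Few genes of any kind did: 0.0141% of 14164 genes for STZ + AOS against AOS, 0.00706% for STZ + control-FMT against AOS and for STZ + AOS against STZ + control-FMT, and 0% in the other 3 comparisons and in the F test. The unadjusted p was under 0.05 for 4 members in STZ + AOS against AOS, for 2 in STZ + AOS against STZ + control-FMT, for 1 each in STZ + AOS against STZ + AOS-FMT and STZ + control-FMT against AOS, and for 0 in the other 2. Among all genes, 1781, 1167, 920, 1418, 779 (STZ + AOS-FMT against AOS) and 866 (the transplants against each other) had an unadjusted p under 0.05, and 1305 in the F test, with 1 member.

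STZ + AOS against AOS had more members at an unadjusted p under 0.05 than the other 5 comparisons. Serpina3n, Lrg1, Saa3, C3 and Itih3 had every STZ + AOS library above every AOS library, 5 of 8 members, while 15.5% of all genes tested were higher without overlap. The log2 difference was 1.30 for Serpina3n (SE 0.36, 95% interval 0.53 to 2.07, limma adjusted p = 0.195). C3 differed by 1.00 (SE 0.38, adjusted p = 0.312) and Lrg1 by 0.94 (SE 0.39, adjusted p = 0.352). For Saa3 it was 0.71 (SE 0.33, adjusted p = 0.388), against AOS libraries listed at 0, and for Itih3 0.36 (SE 0.22, adjusted p = 0.523). With all libraries in the model these 5 genes thus stood apart by library and did not pass over the table. A fit without the STZ libraries, chosen after seeing the data, called 1.11% of all genes. The limma adjusted p there was 0.0554 for Lrg1, 0.0616 for Serpina3n and 0.0724 for Itih3. It was 0.0919 for C3 and 0.165 for Saa3, so none of the 5 passed.

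Serpina3n was also higher in every STZ + AOS library than in every STZ + AOS-FMT library, by 1.23 (SE 0.36, limma adjusted p = 0.629), as was Itih3, by 0.27 (SE 0.22, adjusted p = 0.879). Of all genes, 8.67% were higher without overlap in that comparison. Lcn2 was lower there in every library (-0.70, SE 0.59, adjusted p = 0.884), as were 6.25% of all genes. STZ + AOS-FMT against AOS had 2 members higher in every library, Saa3 and Lcn2, while 8.77% of genes were.

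Lcn2 had a pattern of its own over the 5 groups outside STZ. It was at 270.09, 165.79 and 202.12 FPKM in STZ + AOS, at 380.40, 333.36 and 305.04 FPKM in STZ + AOS-FMT and at 408.02, 447.62 and 421.06 FPKM in STZ + control-FMT. The AOS libraries had 227.29, 305.02 and 215.25 FPKM, and the control libraries are given above. The values formed 3 levels without overlap: control and STZ + control-FMT at the top, STZ + AOS-FMT between, and AOS with STZ + AOS at the bottom, where the border between the lower levels was 305.04 against 305.02 FPKM. STZ + AOS was lower than STZ + control-FMT by a log2 difference of -1.03, which did not pass with all libraries in the model (SE 0.59, limma adjusted p = 0.684).

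That model shares 1 estimate of the spread, which includes the STZ libraries at 184.37 to 1902.87 FPKM. With the STZ libraries left out of the fit, an alternative chosen after seeing the data, the SE was 0.16 and the difference passed (95% interval -1.37 to -0.69, limma adjusted p = 0.0167). It also passed without STZ replicate 1 alone, and over all alternatives its adjusted p ranged between 0.014 and 0.996. In that same fit 0.657% of all genes were called. STZ + control-FMT was higher than AOS by 0.79 (SE 0.16), with an adjusted p of 0.0596 without the STZ libraries, 0.0493 without STZ replicate 1 alone and 0.658 with all libraries (0.0493 to 0.919 over all alternatives). The F test over the 4 groups gave Lcn2 an adjusted p of 0.0366 without the STZ libraries, where 0.565% of genes passed, and 0.748 with them (0.0309 to 0.904 over all alternatives). Hp had 0.048 without the STZ libraries and 0.548 with them (0.048 to 0.75).

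The sum of Leydig cell markers stood beside Lcn2. The summed level of 14 Leydig markers was 2097 to 2659 FPKM in STZ + AOS, 3282 to 3730 in STZ + AOS-FMT, 3056 to 4120 in STZ + control-FMT, 2715 to 3671 in AOS and 3661 to 4193 in control. In the STZ libraries it was 1962, 12280 and 13110 FPKM, lowest in the library where Lcn2 was low and highest in the 2 where it was high. Of the 14 markers, 5 were higher in STZ than in control and 0 lower, while 43.2% of all genes tested were higher and 12% lower. Most of the sum was 1 gene, Insl3, named after its values were seen. Insl3 was at 1574.39, 10966.60 and 11438.49 FPKM in STZ, against 3344.52, 2929.11 and 3159.64 FPKM in control. The part of Leydig cells in the Lcn2 levels was not tested.

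Hp was highest outside STZ in the STZ + control-FMT group, at 1.84, 1.63 and 2.12 FPKM. It was at 0.84, 0.32 and 0.79 FPKM in STZ + AOS, at 0.42, 1.24 and 1.16 FPKM in STZ + AOS-FMT and at 0.48, 0.26 and 0.21 FPKM in AOS. Every STZ + control-FMT library was above all other libraries outside STZ. Against AOS the log2 difference was 1.12 (95% interval 0.32 to 1.93, limma adjusted p = 0.357). It passed only without the STZ libraries (SE 0.18, adjusted p = 0.0288), a fit that called 0.113% of all genes, and over all alternatives the adjusted p ranged from 0.0288 to 0.768. Hp was one of 5 members higher without overlap there, with Lrg1, Saa3, C3 and Lcn2, while 17.2% of all genes were.

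STZ + AOS-FMT libraries were lower than STZ + control-FMT libraries without overlap for Lcn2, Hp and Cp (11.2% of all genes). The log2 differences were -0.33 (95% interval -1.57 to 0.91), -0.59 (-1.39 to 0.22) and -0.30 (-0.82 to 0.22), with limma adjusted p of 0.967, 0.89 and 0.913. For the other 5 members the 2 transplants overlapped. All 8 intervals included 0, and that of Serpina3n ran from -1.04 to 0.50. STZ + AOS against STZ + control-FMT had Itih3 higher without overlap (6.07% of genes were), and Lcn2 and Hp lower (11.4%).

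Adipose markers stood beside Hp. Of 12 markers 11 passed the filter, with 1 higher and 1 lower in STZ than in control. Their summed level was 220.1 to 256.4 FPKM in STZ + control-FMT, 159.6 to 221.5 in STZ + AOS-FMT, 146.9 to 158.9 in STZ + AOS and 154.9 to 189.5 in AOS. In STZ it was 150.1, 112.3 and 362.8 FPKM, highest in replicate 3, where Hp was highest, while replicate 2 had the lowest sum of the series with 1.52 FPKM of Hp. Control libraries had 154.7 to 185.1 FPKM. The markers did not move alike. Adipoq, which encodes adiponectin, was at 13.24, 11.86 and 14.66 FPKM in STZ + control-FMT, against 13.12, 10.18 and 12.32 FPKM in AOS, with overlap. Fabp4, a fatty acid carrier of fat cells, was at 39.85, 30.55 and 33.32 FPKM, against 13.17, 4.46 and 2.47 FPKM. Cfd, adipsin, was at 28.69, 16.30 and 22.83 FPKM, against 8.70, 2.31 and 1.23 FPKM. Both stood apart in that comparison and were highest in STZ replicate 3, at 78.54 and 62.12 FPKM, where Hp was highest; the 2 genes were named after their values were seen. Erythrocyte markers, 7 genes, also summed highest outside STZ in STZ + control-FMT, at 673.4, 325.9 and 297.3 FPKM, against 69.24, 98.76 and 66.62 FPKM in AOS and 112.9, 140.9 and 99.83 FPKM in control. They were at 61.67, 396.5 and 186.2 FPKM in STZ, lowest in the library where Hp was lowest, but highest in replicate 2, while Hp was highest in replicate 3. Epididymis markers, of which 6 of 14 passed the filter, summed to 387.4, 639.7 and 736.2 FPKM in STZ + control-FMT, against 388, 333.5 and 371.6 FPKM in AOS and 329.6, 279.2 and 495.8 FPKM in control, and to 375.5, 265.1 and 379.6 FPKM in STZ. In every STZ library 8 of the 14 were below 1 FPKM, with 6 at 0, so the sum there rested on few genes. The epididymal gene Lcn8 was at 1.30, 0.13 and 70.21 FPKM in the STZ + control-FMT libraries, so it did not follow their sums. The part of adipose tissue, blood or epididymis in the Hp levels was not tested.

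**Figure D3:**
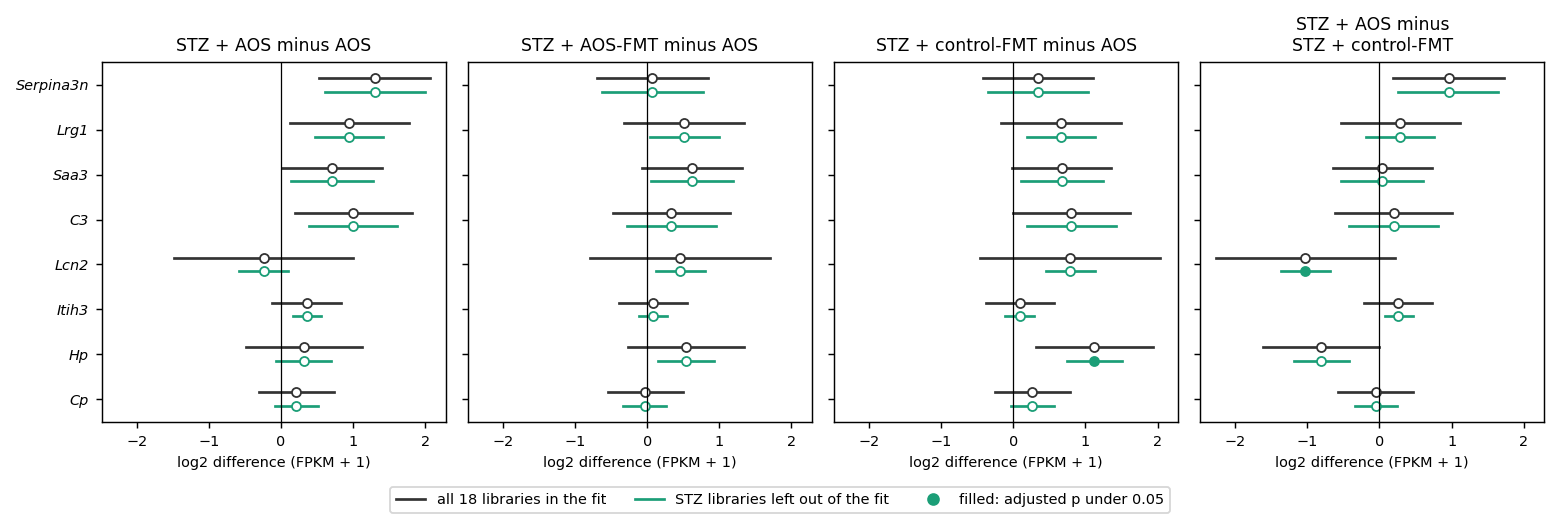
Log2 differences of the 8 members with 95% intervals in 4 of the 6 comparisons that could be tested, from the limma fit of all 18 libraries (dark) and from the fit without the STZ libraries (green), with filled points at an adjusted p under 0.05. With all libraries no point is filled, and without STZ those of Lcn2 (-1.03) and Hp (1.12) are.

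**Figure D4:**
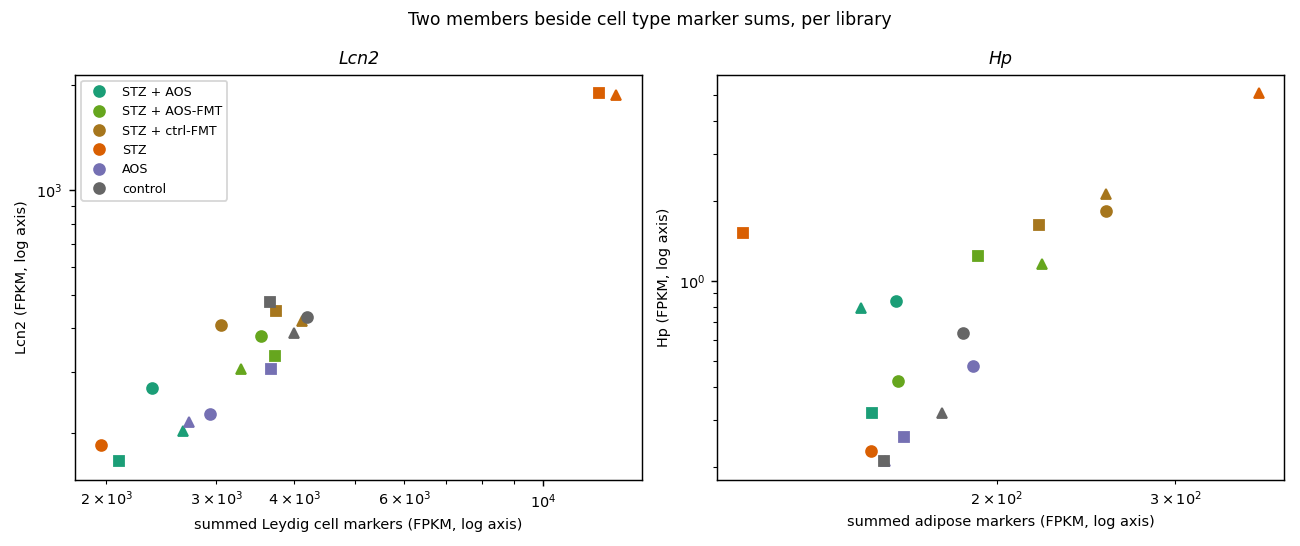
Lcn2 against the summed Leydig markers and Hp against the summed adipose markers, both in FPKM on log axes, 1 point a library, coloured by group with symbols for replicates 1 (circle), 2 (square) and 3 (triangle). STZ replicate 1, at 184.37 FPKM of Lcn2, has the lowest Leydig sum (1962 FPKM), and STZ replicate 2 is the Hp point farthest to the left (112.3 FPKM).

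The genes around the members were tested in STZ against control, where 43.2% of all 14164 genes were higher and 12% lower in limma at an adjusted p under 0.05, with a median log2 difference of 0.17. The direction of calls over all genes depended on the scaling: 78.2% of them were higher on the deposited values, 43.5% after quantile normalization and 30.4% after median centring, when the median of all genes was -0.06 and -0.17. Counts of higher and lower genes of the 5 lists are therefore given under all 3. Those of the cell type markers are on the deposited values only. The 5 lists were drawn up with earlier results of these data known, and C4b, Cfb and Ptx3, which was not tested, are in 2 of them.

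Among the inducers, most receptors, signal carriers and transcription factors were higher, and the ligand genes went different ways. Of 42 listed genes 32 were tested, 28 of them higher and 1 lower, with a median of 0.83; the counts were 20 and 2 after quantile normalization and after median centring. Il1b, Il6ra and Socs3 passed the filter only through the STZ libraries, and of the other 29 genes 26 were higher and 1 lower. Il6, the ligand itself, was at 0, 0.07 and 0 FPKM in STZ, against 0.07, 0 and 0 FPKM in control. Il1b was at 1.22, 0.92 and 1.08 FPKM in STZ, against 0.69, 0.80 and 0.51 FPKM in control, and did not pass (0.32, SE 0.16, limma adjusted p = 0.0986), except without STZ + AOS replicate 1; after median centring its difference was -0.03. Il1a was at 1.23, 2.27 and 2.61 FPKM in STZ, against 0.81, 0.83 and 0.98 FPKM in control, and was called higher (0.67, SE 0.17, limma adjusted p = 0.00349). Il6 was above 0 in 3 of the 18 libraries. Lif, not tested, was at 0.28, 1.05 and 0.50 FPKM in STZ, against 0.10, 0.08 and 0.11 FPKM in control. Tnf, not tested, was at 0.14, 0.09 and 0.13 FPKM in STZ, against 0, 0.04 and 0 FPKM in control. Il11, at 4.55, 4.72 and 4.33 FPKM in STZ, against 6.51, 5.88 and 5.24 FPKM in control, was the 1 gene called lower (-0.31, SE 0.10). That call was lost without STZ replicate 3, without control replicate 1 and when only the groups compared were fitted. Il1a, Lif, Tnf and Il11 were named after their values were seen.

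Downstream, the shared receptor chain gp130 gene Il6st was at 6.68, 9.89 and 9.69 FPKM in STZ, against 3.49, 3.48 and 3.38 FPKM in control (1.11, SE 0.11). Stat3, which carries its signal, was at 14.18, 24.51 and 23.19 FPKM, against 6.74, 7.48 and 6.76 FPKM (1.40, SE 0.13). Socs3, the STAT3-induced inhibitor of the same receptor, was at 2.59, 7.92 and 4.01 FPKM, against 0.34, 0.38 and 0.22 FPKM (2.05, SE 0.22). Socs3 passed the filter only through STZ, which favoured a rise. Like 5 of the members it was lowest in STZ replicate 1 and highest in replicate 2. Outside STZ, Socs3 was at 1.02, 0.77 and 0.53 FPKM in STZ + AOS, above the other 12 libraries, which reached at most 0.42 FPKM. The C/EBP genes Cebpb (1.67, SE 0.17) and Cebpd (1.56, SE 0.20) rose, as did the NF-kB inhibitor gene Nfkbia (1.32, SE 0.12), itself an NF-kB target, and the NF-kB subunit gene Rela (0.51, SE 0.05). Il6st, Stat3, Cebpb, Cebpd, Nfkbia and Rela had limma adjusted p under 0.05 in each alternative run, the highest being 0.034 for Rela.

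Other acute-phase genes outside the 8 members were partly silent in testis. Of 42 listed genes 41 were in the table and 18 were tested, 11 higher and 0 lower (median 0.66), or 10 and 2 after quantile normalization and 8 and 3 after median centring. The liver-type serum amyloid gene Saa2 was listed at 0 in all 18 libraries. Saa1 was at 0.80, 0.60 and 0.73 FPKM in STZ, against 1.2, 0.60 and 1.24 FPKM in control, and did not pass (-0.22, SE 0.17, adjusted p = 0.285 in limma), except downward after median centring (-0.56). Orm1, orosomucoid, reached at most 0.42 FPKM in any library, and Serpina3m at most 0.20 FPKM.

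Cd14, the lipopolysaccharide co-receptor gene, was at 6.07, 15.84 and 9.08 FPKM in STZ, against 0.92, 0.42 and 0.71 FPKM in control (2.67, SE 0.27). Serpina3g, a paralog of Serpina3n, was at 2.28, 13.03 and 10.56 FPKM, against 0.31, 0.38 and 0.63 FPKM (2.50, SE 0.39), with 16% of its 50-base windows shared with other genes. F3, tissue factor, the starter of blood clotting, rose by 1.52 (SE 0.11). Each of the 3 STZ libraries was above all control libraries for these genes. Cd14, Serpina3g and Cfb passed the filter only through the STZ libraries; of the other 15 tested genes 8 were higher.

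Genes that fall in the liver during an acute phase did not fall together here. Of 10 listed, 5 were tested, 3 higher and 1 lower, or 2 and 1 after quantile normalization and 3 and 1 after median centring. Ahsg, fetuin-A, was at 3.04, 8.20 and 5.35 FPKM in STZ, against 0.14, 0.26 and 0.37 FPKM in control (2.30, SE 0.21); it passed the filter only through STZ and is also on the hepatocyte list. Trf, transferrin, which is also on the Sertoli list, was at 10.59, 21.24 and 24.39 FPKM, against 7.12, 7.71 and 6.91 FPKM (1.18, SE 0.22). Rbp4, the retinol carrier gene, rose by 0.66 (SE 0.15), a call lost after quantile normalization (0.26). Apoh was the one gene called lower (-0.32, SE 0.13, limma adjusted p = 0.0457), a call lost in 19 of 24 alternatives, with an adjusted p of up to 0.24. Alb was not tested. The list's median of 0.66 rested on few genes: it was 0.19 without Ahsg, 0.13 without STZ replicate 3, when that of all genes was 0.14, and 0.06 with no filter, when that of all genes was 0.09.

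Complement genes were the list with the highest median, 1.02, with 21 of 27 tested genes higher and 1 lower. After quantile normalization the counts were 19 and 3, and after median centring 18 and 2. C1s1, a protease of the first component, was at 19.00, 31.74 and 23.46 FPKM in STZ, against 3.51, 4.24 and 4.37 FPKM in control (2.33, SE 0.20). C4b, which acts just before C3 in the classical route, was at 10.49, 25.65 and 26.98 FPKM, against 4.23, 4.74 and 3.73 FPKM (1.97, SE 0.23), with replicate 1 lowest as for C3. Cfi, the protease that inactivates C3b, was at 5.69, 5.84 and 4.19 FPKM, against 0.46, 0.45 and 0.56 FPKM (2.06, SE 0.14), with replicate 1 not the lowest. Cfi passed the filter only through STZ, which favoured a rise. Cfb, the partner of C3b in the alternative route, rose by 1.02 (SE 0.18). Clu, clusterin, an inhibitor of the terminal complex that is also a Sertoli marker, rose by 1.53 (SE 0.08). The macrophage markers C1qa (1.71), C1qb (0.88) and C1qc (1.68) are in this list too, and Cfb, Cfi, Cfp, Itgam, Itgb2 and Vsig4, 6 of its 27 genes, passed the filter only through STZ; of the other 21, 15 were higher and 1, the regulator gene Cd46 (-0.23), was lower.

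Receptors and partners of the members, with iron and matrix genes, were the last list, with 15 of 18 tested genes higher and 0 lower (median 0.72), or 10 and 0 after quantile normalization and 11 and 2 after median centring. Cd163, the macrophage receptor for haptoglobin bound to haemoglobin, was at 1.03, 1.36 and 1.07 FPKM in STZ, against 0.20, 0.20 and 0.26 FPKM in control (0.82, SE 0.09). It passed the filter only through the STZ libraries, as did Slc40a1, and was above control in all 3 of them, also in replicate 1, where Hp was at 0.23 FPKM. Ftl1, ferritin light chain, was at 214.20, 269.80 and 327.72 FPKM, against 114.21, 106.19 and 124.08 FPKM (1.21, SE 0.12). Steap3, an iron reductase gene, rose by 1.21 (SE 0.10) and the endocytic receptor gene Lrp1 by 1.12 (SE 0.14). Slc40a1, the iron exporter ferroportin, rose by 0.56 (SE 0.13), a call lost after quantile normalization and after median centring.

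**Figure D5:**
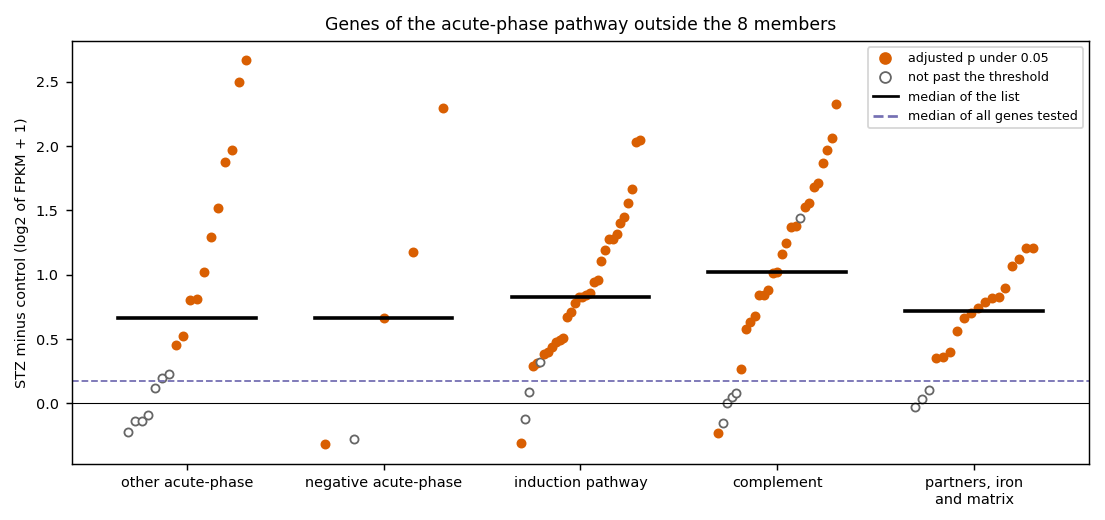
Log2 difference of FPKM + 1, STZ minus control, for each tested gene of the 5 lists outside the 8 members; filled points passed an adjusted p of 0.05 in limma, black lines are list medians and the dashed line is the median of all genes tested (0.17). The medians run from 0.66 to 1.02, and that of the 5 negative acute-phase genes is 0.19 without Ahsg, which passed the filter only through STZ.

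Genes whose 5 group differences from control were nearest to those of a member were found by root mean square distance on the log2 scale, over group means of 3 libraries. Timp1, an inhibitor of matrix metalloproteinases, was among the nearest 2 for Lrg1 (distance 0.157), C3 (0.18) and Serpina3n (0.344). It was at 7.55, 2.89 and 2.42 FPKM in STZ + AOS and at 12.62, 43.02 and 27.12 FPKM in STZ, against 2.29, 2.29 and 2.56 FPKM in control, with the library order of Serpina3n in both treated groups. The nearest gene to Serpina3n itself was 4930486L24Rik (0.211). For Lcn2 they were Lipg, which encodes endothelial lipase (0.23), and Tmem176a (0.267). Tmem176a was at 23.72, 97.80 and 100.60 FPKM in STZ, against 37.00, 34.88 and 36.30 FPKM in control, with replicate 1 below control as for Lcn2. Saa3 was nearest to Syngr1 (0.148) and Tspan4 (0.186), Itih3 to Cnn3 (0.0962) and Lbh (0.115), Hp to Ppp1r1b (0.223) and Zfp354b (0.224), and Cp to Tpm1 (0.0428) and Nab1 (0.0466).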

How the data were processed

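Total RNA from whole testis of 18 libraries was sequenced by Illumina protocols. The deposited table holds 1 value per gene and library; its header names no unit, and the authors' values were taken as FPKM because low values of a gene tend to be whole multiples of a step that differs between genes (68.4% of 2719 values examined, tolerance 0.15; step and transcript length, Spearman rho -0.36 across genes). That share is too low to recover reads, so the depth per library is unknown; the steps gave relative depths of 0.917 to 1.04. Bowtie 0.12.2 and the mm10 build are named in the submitters' processing notes, with no role; the sources used here do not give the counter, strand setting or scaling. Column sums were 561038 to 622169 FPKM.

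Values were analysed as log2(FPKM + 1) for the 14164 of 20985 genes with at least 1 FPKM in at least 3 libraries. One limma model (3.58.1, R 4.3.3) with a mean per group and an intensity trend gave differences, moderated tests (two-sided) and Benjamini-Hochberg adjusted p over all genes tested. It was tested on simulated data. The members and lists were chosen with earlier results of these data known. Named list genes are up to 4 per list with the smallest adjusted p in STZ against control among those called, a fixed set of 17 genes whatever their values, and the 2 genes nearest to each member; Tmem176a, Timp1 and Socs3 were described further, and C1qa, C1qb, C1qc and the genes said so in the text named, after their values were seen. Alternatives were another pseudocount (0.1), no filter, quantile normalization, median centring, a replicate block, leaving out each library, fitting only the groups compared, and division by Sertoli markers; a fit without the STZ libraries was added after seeing the data. Positions are from GENCODE M21 (GRCm38), in which 20248 symbols matched, and promoters from RefSeq.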

Additional observations from a re-analysis of the deposited data

How the results depend on the processing

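No member was called in STZ + AOS against AOS, in STZ + AOS-FMT against AOS, in the transplants against each other or in STZ + AOS against STZ + AOS-FMT under any alternative run. In STZ + control-FMT against AOS, STZ + AOS against STZ + control-FMT and the F test, leaving out each library in turn gave 0 to 1 called members, the 1 being Lcn2 without STZ replicate 1, and without the STZ libraries 1, 1 and 2 members were called. Counts of lower genes in STZ against control moved: other acute-phase genes, 0 on the deposited scaling, had 2 after quantile normalization and 3 after median centring, partner, iron and matrix genes had 2 after median centring, inducers had 2 and 2 and complement 3 and 2. The 1 lower negative acute-phase gene was 0 with no filter; it, the 1 lower inducer and the 1 lower complement gene were 0 when only the groups compared were fitted, and leaving out a library gave 0 to 1, 0 to 1 and 0 to 2 of them. Counts of higher genes stayed within 1.5 times.

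Dividing by Sertoli markers turned the differences of Lcn2 (-0.14), Hp (-0.20) and Cp (-0.12) between STZ and control, of Hp (0.36) and Cp (0.01) between STZ + AOS and STZ, of Hp (0.65) between STZ + AOS-FMT and STZ, and of Cp (0.01) between STZ + control-FMT and STZ. For Hp, a low gene, the + 1 shrinks the difference and not the Sertoli shift, so its turns depend on the log scale used. Hp also turned when single libraries were left out: between STZ + AOS-FMT and STZ it ran from -1.04 to 0.11 (without STZ replicate 3), between STZ + control-FMT and STZ from -0.46 (without STZ replicate 1) to 0.70, and between AOS and control from -0.17 to 0.05 (without control replicate 1). With a pseudocount of 0.1 Saa3 and Itih3 differed between STZ and control by 4.60 and 4.02. Il1b turned after median centring (-0.03) and was called higher without STZ + AOS replicate 1. The median of the negative acute-phase genes fell to 0.13 without STZ replicate 3 and to 0.06 with no filter. The cause of these changes was not tested. Replicate numbers were not taken to pair the libraries: same-numbered deviations did not correlate above 0.1 in all 3 pairs of any comparison. That rule cannot show that the libraries are unpaired. In STZ + control-FMT against STZ each library correlated best with its own number, though only at 0.02, 0.02 and 0.03. The replicate block called 7742 genes in STZ against control, against 7823 without it. It had 20 complement genes higher and no member called in the 6 comparisons or the F test. Depth cannot be recovered, so members under about 1 FPKM (Hp, Saa3 and Itih3 outside STZ) are the least certain.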

Other observations

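STZ + control-FMT replicate 3 held RNA of the epididymal gene Lcn8 at 70.21 FPKM, against 1.30 and 0.13 FPKM in the other STZ + control-FMT libraries and 0 FPKM in the other 15 libraries.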
